A study of Homo sapiens with 8 samples.

Results

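The agreement of 2 short hairpin RNAs, sh1 and sh4, against the same gene, KDM2A, was described from the H3K36me2 regions called in each knockdown. The sh1 list held 19501 regions and the sh4 list 21493. Those on chromosomes 1 to 22 were compared, without chromosome 1 from 140 Mb on, which left 18210 regions of sh1 and 19069 of sh4, out of 565409 regions and peaks in the 4 lists of the series. Both libraries were chromatin immunoprecipitations (ChIP) from neural progenitor cells, which had been derived from the human embryonic stem cell line H9, an established line. The stem cells were infected with hairpin lentivirus and selected with puromycin before they were turned into progenitors, so both groups share the line, the vector type, the selection and the differentiation. The hairpins came from the 2 most effective of 5 small interfering RNAs. Each hairpin has 1 library with its own input, no replicate, and no statement of whether the infected cells were 1 clone. No test between the hairpins was therefore possible, and every interval below is a 95% interval that covers counting error only. The study also holds H3K36me2 in cells with a control virus, which was not used here, and KDM2A peaks in such control cells, which were used once. How much KDM2A remained in either line was not analysed here.

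KDM2A is a histone demethylase that removes methyl groups from lysine 36 of histone H3. It binds unmethylated CpG-rich DNA through a CXXC zinc finger, and CpG islands at gene starts are poor in H3K36me2. H3K36me2 itself forms broad domains across intergenic sequence and the bodies of genes, laid down by NSD-family enzymes, and it counteracts Polycomb repression. The question put to the lists was how far a region, a domain or a gene recurs between the hairpins. In such bulk libraries a mark in fewer cells and a weaker mark per cell cannot be told apart.

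Gene starts were seldom inside a region of either hairpin. Of 20023 windows of 300 bp around the starts of 14267 protein-coding genes (250 bases before and 50 after the start, RefSeq, GRCh38.p14), 12 lay wholly inside regions of both lists, 135 inside sh1 regions only and 118 inside sh4 regions only. The 250 bases upstream of the start are given for the 4 genes with the longest shared stretch across the start, read 5′ to 3′ on the gene's strand, with every CpG in capitals, the dinucleotide that the KDM2A zinc finger recognises when it is unmethylated.
SPAM1: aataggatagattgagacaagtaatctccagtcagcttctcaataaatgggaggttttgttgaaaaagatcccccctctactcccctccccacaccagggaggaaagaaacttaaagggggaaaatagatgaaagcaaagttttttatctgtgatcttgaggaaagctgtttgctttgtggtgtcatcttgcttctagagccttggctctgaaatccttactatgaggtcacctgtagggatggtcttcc
HSD17B13: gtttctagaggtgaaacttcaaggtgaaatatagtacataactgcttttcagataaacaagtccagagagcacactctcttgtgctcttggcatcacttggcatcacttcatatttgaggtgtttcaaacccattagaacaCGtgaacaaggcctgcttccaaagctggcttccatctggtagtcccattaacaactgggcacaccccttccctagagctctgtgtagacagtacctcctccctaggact
SEMA3E: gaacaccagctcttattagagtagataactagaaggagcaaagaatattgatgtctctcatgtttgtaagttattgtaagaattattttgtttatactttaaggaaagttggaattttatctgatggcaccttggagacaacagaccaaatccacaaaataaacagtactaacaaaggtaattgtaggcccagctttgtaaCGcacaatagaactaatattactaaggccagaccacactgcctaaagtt
GRAMD2B: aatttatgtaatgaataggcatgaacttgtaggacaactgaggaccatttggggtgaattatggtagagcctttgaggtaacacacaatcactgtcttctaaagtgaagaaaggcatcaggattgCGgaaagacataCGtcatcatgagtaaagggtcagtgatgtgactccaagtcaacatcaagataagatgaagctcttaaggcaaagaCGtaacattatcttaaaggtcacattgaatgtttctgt
SPAM1, a sperm hyaluronidase (upstream bases at chr7:123924991-123925240, plus strand), had 0 CpG in these bases and a shared stretch of 5200 bp with a fold of 1.43 in both lists. HSD17B13, a lipid droplet enzyme of liver (chr4:87322883-87323132, minus strand), had 1 CpG, a shared stretch of 4000 bp and folds of 1.57 in sh1 and 1.51 in sh4. SEMA3E, a secreted axon guidance cue (chr7:83641432-83641681, minus strand), had 1 CpG, 3800 bp shared and folds of 1.603 and 2.05. GRAMD2B, a membrane-associated GRAM domain protein (chr5:126359870-126360119, plus strand), had 3 CpG, 3400 bp shared and folds of 2.06 and 1.64. All 4 starts thus had few CpG.

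Counted on both strands alike, the 300 bp windows held a median of 2 CpG where both hairpins had a region, 5 where sh1 alone had one, 2 where sh4 alone had one and 21 over all windows. At least 10 CpG were present in 2 of the 12 shared windows (16.7%, 2.09 to 48.4). These were VTA1, an endosomal sorting gene, with 26 CpG and the neighbouring NMBR, the neuromedin B receptor, with 25, whose windows share bases. The share was 34.1% of the sh1-only windows (46; 26.1 to 42.7) and 10.2% of the sh4-only windows (12; 5.37 to 17.1), against 70.7% of all windows. These windows belong to 122 and 110 genes of 1 library each, so the intervals cover counting error and the difference between the hairpins was not tested. The other shared starts were those of PDE11A, PTPRD, PHLDB2, GNAT3, CLNK and ITGAV.

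The lists were alike in size and make-up. The sh1 regions covered 88.2 Mb and the sh4 regions 93.7 Mb. Their median width was 4200 bp in sh1 (quartiles 3000 and 5800 bp) and 4400 bp in sh4 (3400 and 5800 bp). The deposited fold, a linear ratio of immunoprecipitated (IP) reads to input reads in a region, had a median of 1.65 in sh1 and 1.66 in sh4, and it reached 2 in 14.0% and 15.2% of regions. The median region held 151 IP and 89 input reads in sh1 and 153 and 90 in sh4. At that depth the fold of a typical region had an interval of 1.26 to 2.18 in sh1 and 1.27 to 2.19 in sh4. Input reads per kb of region were 23.4 in sh1 and 21.6 in sh4. Of the 17 marker genes of neural progenitors, pluripotent cells, neurons and neural crest that could be looked up, 1 had a region in either list, the neuronal gene STMN2, which had one in both. Over all protein-coding genes 16.4% had one in sh1, 15.5% in sh4 and 9.83% in both. Among genes of 5 to 20 kb the shares were 2.14% in sh1 and 1.79% in sh4, and the lengths of the markers were not compared. These lists measure no RNA and so do not check the labelled cell type.

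Region by region, the hairpins seldom coincided. They shared 9.58 Mb, which was 10.9% of the sh1 length and 10.2% of the sh4 length. An sh4 region met 3137 sh1 regions (17.2%, 16.7 to 17.8, by at least 1 bp) and an sh1 region met 3091 sh4 regions (16.2%, 15.7 to 16.7). At least 50% of the region was covered by the other list for 2017 sh1 regions (11.1%) and 1849 sh4 regions (9.70%). Wholly inside the other list lay 731 sh1 regions (4.01%) and 483 sh4 regions (2.53%). The product of the coverages within each 1 Mb window, a description of what 2 lists of this local density would share if placed without regard to each other, was 5.72 Mb, so that the shared length was 1.68 times the product. This ratio was 1.15 with windows of 10 kb, 1.43 with 100 kb and 2.07 with 10 Mb. Windows of 10 kb are little wider than the regions (medians 4200 and 4400 bp), which draws the product towards the shared length. The value of 1.15 therefore does not measure how near the lists are to unrelated placement.

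For regions that did not meet, the distance to the other list was measured. No distance given by region density alone was computed beside it, so these values do not show that the lists lie close together. The median distance from an unmet region to the nearest region of the other hairpin was 26800 bp for sh1 and 29800 bp for sh4. Counting met regions too, 38.1% of sh1 regions and 35.9% of sh4 regions lay within 10 kb of the other list, and 73.7% and 70.4% within 50 kb. Beyond 100 kb lay 2402 sh1 regions (13.2%) and 2951 sh4 regions (15.5%), and beyond 1 Mb 145 and 86. Met regions were wider than unmet ones, with medians of 4600 against 4000 bp in sh1 and 5000 against 4200 bp in sh4. Their folds were no higher, at 1.64 against 1.66 in sh1 and 1.605 against 1.67 in sh4.

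Agreement depended on the scale at which the mark was read. The correlation of covered length between the hairpins was r = 0.129 (Spearman's rho 0.142) over 271470 windows of 10 kb and r = 0.419 (rho 0.458) over 27158 windows of 100 kb. It was 0.757 (0.815) over 2726 windows of 1 Mb, 0.877 (0.911) over 556 windows of 5 Mb and 0.916 (0.937) over 285 windows of 10 Mb. Of the 10 kb windows with an sh1 region, 22.8% also held an sh4 region, and 21.5% the other way round. Of all 10 kb windows 9.77% held an sh4 region and 9.23% an sh1 region. At 1 Mb the shares were 91.3% and 92.2%, but there 78.2% of all windows held an sh4 region and 79.0% an sh1 region. Most windows of 1 Mb or more thus held each list in any case, and the amount covered, rather than presence, is what the correlation describes. Windows share mappability, base composition and gene density between libraries, and these correlations are descriptions.

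**Figure D1:**
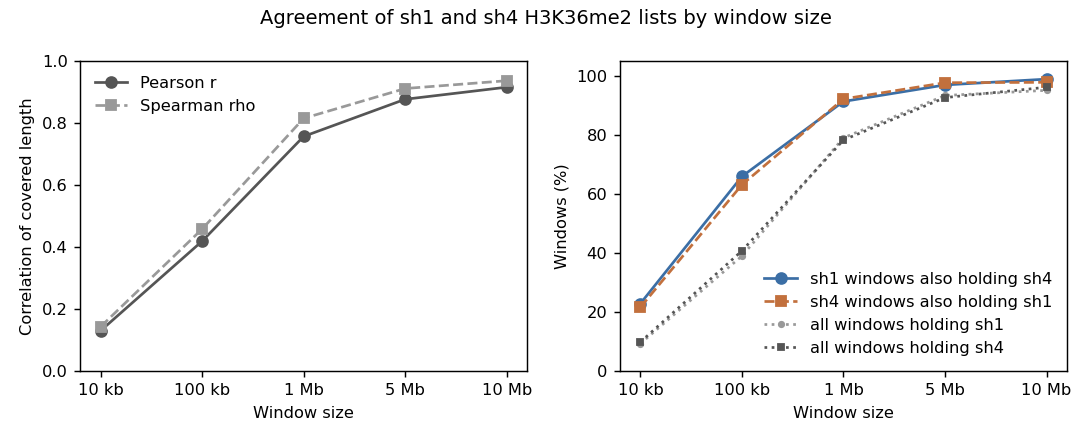
Agreement of the sh1 and sh4 lists by window size. Left: Pearson's r and Spearman's rho of covered length over windows of 10 kb to 10 Mb; right: percent of windows with a region of one hairpin that also hold one of the other, with the percent of all windows that hold each list (dotted). The correlation climbs from r = 0.129 at 10 kb to 0.916 at 10 Mb, while the percentages draw near those of all windows, 98.9% of sh1 windows against 96.1% of all windows with an sh4 region at 10 Mb.

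Chromosomes ranked alike in both hairpins. Region counts per chromosome correlated with r = 0.995 (rho 0.993, 22 chromosomes), from 2099 in sh1 and 2143 in sh4 on chromosome 2 to 6 and 6 on chromosome 19. These counts were not divided by chromosome size, which is common to both lists, so the correlation does not measure agreement of the mark alone. The sh4 list held 1.05 times as many regions as the sh1 list (1.03 to 1.07) and 1.06 times the length. For 21 of the 22 chromosomes the interval of this count ratio held the value of all regions. The exception was chromosome 4, with 1857 regions in sh1 and 2207 in sh4, a ratio of 1.19 (1.12 to 1.26) and a length ratio of 1.247. Chromosome 4 was also the one with the highest share of sh1 length in sh4 among chromosomes with 50 or more sh1 regions, 13.7%, against 11.0% of its sh4 length.

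The shared share followed how densely a chromosome was covered. It was 13.2% of sh1 and 11.9% of sh4 on chromosome 5 and 12.5% and 12.2% on chromosome 3. It was 6.17% and 5.44% on chromosome 10, 6.08% and 6.94% on chromosome 16, and 5.67% and 6.12% on chromosome 17. Over the 20 chromosomes with 50 or more sh1 regions, regions per Mb and the share of sh1 length in sh4 correlated with r = 0.913 (rho 0.940). Both quantities hold the sh1 density, and the shared length over the product of coverages did not follow it (r = -0.324, rho -0.215). That ratio lay between 1.43 on chromosome 20 and 2.51 on chromosome 21, which had 63 and 58 regions. On chromosome 19 a single stretch made up the whole overlap, 69.8% of the sh1 length and 67.3% of the sh4 length there.

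**Figure D2:**
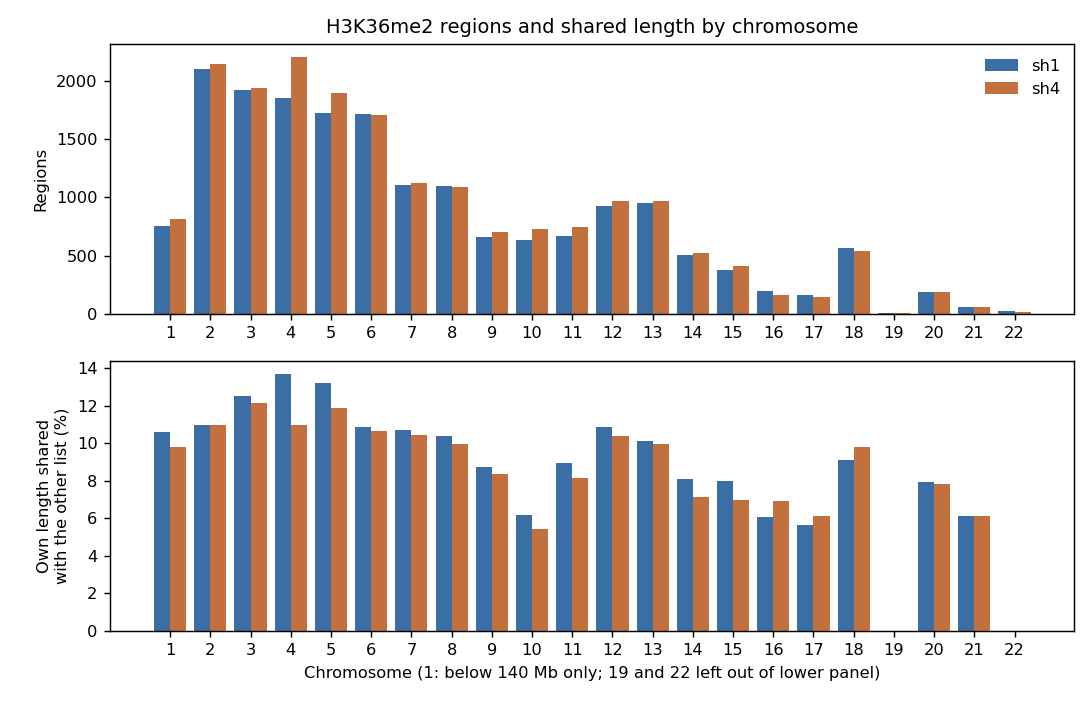
Regions per chromosome (upper bars) and percent of each list's own length shared with the other hairpin (lower bars), sh1 and sh4 side by side. Counts run in parallel except on chromosome 4 (1857 against 2207), and among the chromosomes drawn in the lower bars (19 and 22 are left out) the shared share runs from 5.44% of sh4 on chromosome 10 to 13.7% of sh1 on chromosome 4.

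Within chromosomes the hairpins differed in places. In 195 windows of 10 Mb with at least 300 kb covered in both lists together, the covered length of sh4 over sh1 had a median of 1.08 (quartiles 0.875 and 1.34), and 149 windows (76.4%) lay within 1.5-fold. In 21 windows the interval of the count ratio lay above the value of all regions and in 22 below it. The ends of chromosome 18 stood furthest apart, in opposite directions. From 0 to 10 Mb sh1 covered 451 kb in 83 regions and sh4 181 kb in 40 (length ratio 0.400, count ratio 0.482, 0.322 to 0.711). From 70 to 80 Mb sh1 covered 75.2 kb in 19 regions and sh4 257 kb in 54 (3.41, count ratio 2.84, 1.66 to 5.08). Median folds there were 1.599 and 1.61 in the first window and 1.599 and 1.65 in the second. Input reads per kb were 24.0 in sh1 and 21.7 in sh4 in the first and 24.2 and 21.6 in the second. The part of input depth in these differences was not tested.

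Of the 195 windows, 6 had a length ratio above 2 and 4 a ratio under 0.5. Besides chromosome 18, the high ones were chromosome 10 from 100 to 110 Mb (125.0 kb in sh1, 331 kb in sh4), chromosome 2 from 70 to 80 Mb (ratio 2.33), chromosome 1 from 70 to 80 Mb (2.27, 68 and 130 regions), chromosome 7 from 10 to 20 Mb (2.27, 70 and 141 regions) and chromosome 12 from 30 to 40 Mb (2.11). The low ones were chromosome 8 from 40 to 50 Mb (0.453), chromosome 2 from 230 to 240 Mb (0.480) and chromosome 11 from 120 to 130 Mb (0.492). With 1 library a side, a difference between cultures and one between hairpins cannot be told apart.

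**Figure D3:**
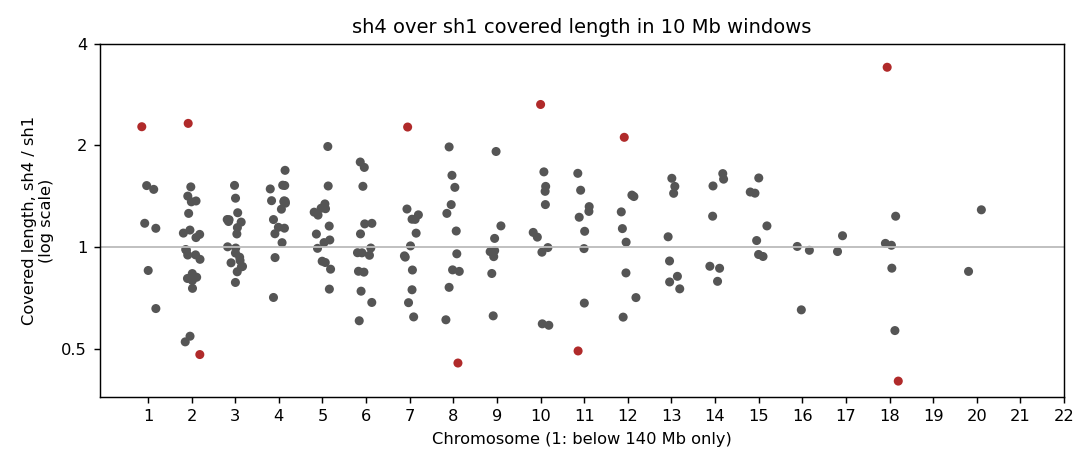
Covered length of sh4 over sh1 (log scale) in 195 windows of 10 Mb, by chromosome; each point is 1 window, and the red points lie above 2 or under 0.5. The quartiles of the points are 0.875 and 1.34, and chromosome 18 holds both the lowest (0.400) and the highest (3.41).

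Gene-poor sequence favoured sh4 and gene-rich sequence sh1. In 457 windows of 1 Mb with 0 protein-coding genes sh1 had 2132 regions and sh4 2727, a ratio of 1.28 (1.21 to 1.35). With 1 to 4 genes (1009 windows) the counts were 9511 and 10083 (1.06, 1.03 to 1.09), with 5 to 9 genes (706 windows) 5075 and 4869 (0.959, 0.922 to 0.998), and with 10 or more (590 windows) 1492 and 1390 (0.932, 0.865 to 1.003). The ratio thus went down with each step of gene density, and the first and last intervals are far apart. The share of sh1 length found in sh4 went down alongside, from 13.6% to 11.7%, 9.59% and 6.71%. For sh4 it was 10.05%, 10.8%, 9.97% and 7.27%, and the shared length over the product was 1.91, 1.59, 1.71 and 2.001.

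Wider regions met the other list more often. Among sh1 regions the share that met an sh4 region was 11.4% up to 2 kb, 14.7% over 2 to 4 kb, 17.7% over 4 to 6 kb, 22.2% over 6 to 8 kb, 24.4% over 8 to 12 kb and 25.9% above 12 kb (21.97 to 30.2, 459 regions). Among sh4 regions it was 9.87%, 12.3%, 15.3%, 21.6%, 29.6% and 40.3% (34.4 to 46.4, 273 regions). A wide region has more room to meet another, so length is the fairer measure. The share of length held in common stayed between 9.23% and 11.9% over the width classes of sh1, with no steady course. For sh4 it went from 8.66% up to 2 kb to 15.95% above 12 kb, so the widest sh4 regions were the ones most often repeated in sh1.

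Fold ordered the sh4 list too, but in reverse. Of sh4 regions with a fold up to 1.4, 30.2% met an sh1 region and 14.3% of their length was shared, and of those above 2.5 the values were 9.02% and 6.15%, with every class between them lower than the one before. In sh1 the same classes ran from 19.6% at a fold up to 1.4 to 18.05% above 2.5, and the share of length from 8.33% to 12.8%. Fold and width go together, since the median width was 9000 bp in the lowest fold class of sh4 and 2800 bp in the highest. Among regions of over 4 to 6 kb, those above the class's median fold met the other list in 19.8% against 15.5% below it in sh1, and in 13.8% against 16.8% in sh4. The strongest sh4 regions were therefore not the most repeatable, and the hairpins differed in the direction of that relation.

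Input depth moved with these values in sh4. The sh4 regions met an sh1 region in 7.59% of cases at up to 15 input reads per kb, in 12.8% over 15 to 20, 17.6% over 20 to 25, 22.7% over 25 to 30 and 16.3% over 30 to 40. In sh1 the shares were 16.9%, 18.4%, 18.2%, 15.7% and 9.12%. Across the fold classes the input reads per kb, the denominator of the fold, went from 26.0 to 13.8 in sh4 and from 28.8 to 14.95 in sh1. The part of input depth in the difference between the hairpins was not tested.

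**Figure D4:**
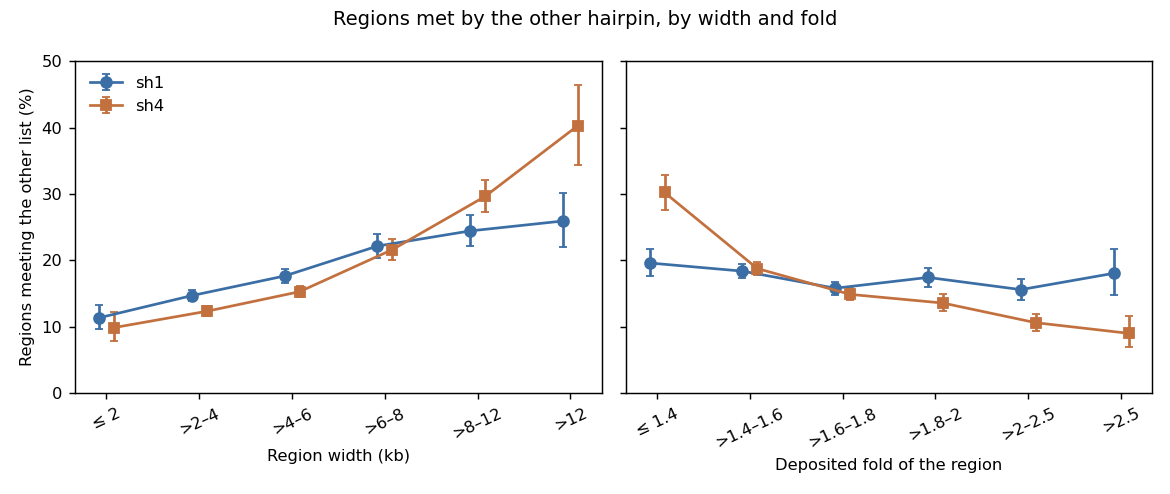
Percent of regions that meet the other hairpin's list, by region width (left, kb) and by deposited fold (right), for sh1 and sh4, with exact 95% binomial intervals (counting error only). The share climbs with width in both lists, to 25.9% in sh1 and 40.3% in sh4 above 12 kb, and goes down with fold in sh4, from 30.2% to 9.02%.

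The overlap consisted of 3225 shared stretches with a median of 2800 bp. Of these, 335 exceeded 5 kb and 15 exceeded 10 kb, while 90 (2.79%) were a single 200 bp step of the grid. The widest, 26800 bp at chr19:27345801-27372600 beside the centromere and 1832720 bp from UQCRFS1, a gene of respiratory complex III, had a fold of 1.15 in both hairpins. It held 1697 IP and 1457 input reads in the sh1 region and 1729 and 1484 in the sh4 region, against medians of 89 and 90 input reads per region in the lists. The other 7 of the 8 widest lay on chromosomes 3, 5, 10 and 15 at ordinary depth. Those within genes were in TENM2, a teneurin adhesion receptor of synapses (chr5:168043601-168056800, 13200 bp, fold 1.21 in sh1 and 1.252 in sh4), LPP, a focal adhesion protein (chr3:188682201-188693600, 11400 bp, 1.59 and 1.32), and LRMDA, a melanocyte differentiation gene (chr10:76063801-76075000, 11200 bp, 1.32 and 1.30).

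The others lay between genes. A stretch of 14400 bp at chr5:124295601-124310000, 326915 bp from the zinc finger gene ZNF608, had folds of 1.246 and 1.26. One of 14000 bp at chr15:47959201-47973200, 147790 bp from the pigmentation gene SLC24A5, had 1.32 and 1.35. One of 12200 bp at chr3:182592201-182604400, 189104 bp from the flippase gene ATP11B, had 1.64 and 1.29, and one of 12200 bp at chr5:112633401-112645600, 61898 bp from the Wnt pathway tumour suppressor APC, had 1.46 and 1.36. All 8 were broad, low-fold regions, below the median fold of 1.65 of the sh1 list.

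Equally wide regions were found in 1 hairpin only. The widest in sh1 alone was 43400 bp at chr10:41872801-41916200 with a fold of 1.14, 6034 IP and 5218 input reads, and 137800 bp from the nearest sh4 region. The next were in RFTN1, a lipid raft protein, and the overlapping OXNAD1 (chr3:16350801-16383200, 32400 bp, fold 1.19), in the colorectal tumour suppressor MCC (chr5:113043401-113075400, 32000 bp, 1.17), at chr2:89817601-89849400 (31800 bp, 1.13) and in FARP1, a guanine nucleotide exchange factor of dendrites (chr13:98393001-98424800, 31800 bp, 1.17). The widest in sh4 alone lay at chr20:8917201-8943800, 32301 bp from the phospholipase gene PLCB1 (26600 bp, fold 1.30, 12000 bp from the nearest sh1 region) and at chr3:113097601-113121600 (24000 bp, 1.21, 2600 bp away). They were followed by chr2:173418201-173439600 near CDCA7, a cell division gene (21400 bp, 1.30), chr6:99304801-99326000 in FAXC (21200 bp, 1.27) and chr2:158647801-158668800 in the plakophilin gene PKP4 (21000 bp, 1.21). The sh1-only regions of this kind were wider than the sh4-only ones and had lower folds. Those on chromosomes 10 and 2 held unusually many input reads, 5218 and 2051, where the rest of the sh1-only regions named held 1011 to 1126.

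Of the 10 regions with the highest fold in each list, 4 met the other hairpin (regions described after their values were seen). Over all regions, 17.2% of sh1 and 16.2% of sh4 met the other list. The region at chr1:633801-634200 had the same ends in both lists and folds of 1191 in sh1 and 973 in sh4. The genome carries a copy of mitochondrial sequence there. Met regions also lay close by, at chr1:629801-632400 in sh1 and chr1:631001-631400 in sh4, with 400 bp shared. These neighbours are not separate cases of strong regions that recur. The 4 of 10 is therefore not comparable with the shares over all regions. A 200 bp region in the centromeric sequence of chromosome 17 had a fold of 2596 in sh1 (chr17:25389801-25390000) and a similar one of 2392 in sh4, but 968200 bp away (chr17:24421401-24421600). Of the next in sh1, KCND2, a potassium channel gene, had a fold of 5.61 (102 IP and 18 input reads) and no sh4 region within 21800 bp, while PDGFD, a platelet-derived growth factor, had 4.45 and shared 2200 bp with sh4. In sh4, TINAG had 4.72 and ADAM2, a sperm surface protein, 4.67, with 0 bp shared. The cilium gene CFAP210 (4.60) and the small GTPase-related gene RHOBTB1 (4.50) shared 1600 and 1800 bp with weaker sh1 regions.

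Where the hairpins did meet, the fold did not carry over closely. There were 2798 pairs in which 1 region of each list met only the other. Their median overlap was 0.421 of the pair's joint length, and 1054 pairs (37.7%) exceeded 0.5. The pairs shared the same start in 165 cases and both ends in 9. The fold of sh4 over sh1 had a median of 0.980 (10th to 90th percentile 0.769 to 1.26), and sh4 was higher in 1250 pairs (44.7%). Log2 folds correlated with r = 0.163 (rho 0.184) and widths with rho 0.0979 across the pairs, which are not independent replicates. The separate fold intervals of the 2 hairpins were apart in 43 of 2795 pairs (1.54%). Overlap of 2 such intervals does not show that the folds are equal, and no interval of the fold ratio was computed. The interval of a typical fold was wide, 1.26 to 2.18 in sh1. The part of counting error in the low correlation was not tested.

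Among those 43, CFAP210 had a fold of 1.62 in sh1 (1.23 to 2.12) and 4.60 in sh4 (2.81 to 7.87), and RHOBTB1 1.498 (1.17 to 1.93) and 4.50 (2.68 to 7.97). The dystrophin relative UTRN had 1.66 (1.24 to 2.24) and 3.78 (2.57 to 5.69). In the opposite direction, MAP2K5, the kinase above ERK5, had 3.44 (2.04 to 6.06) in sh1 and 1.47 (1.15 to 1.89) in sh4, and the malic enzyme gene ME3 3.39 (2.17 to 5.46) and 1.399 (1.16 to 1.69). These 5 were chosen after their values were seen. One of the 9 pairs with identical ends was DUX4, a double homeobox gene of the D4Z4 repeat near the end of chromosome 4 (chr4:190176201-190180000), with folds of 2.70 (2.39 to 3.05) in sh1 and 2.88 (2.56 to 3.25) in sh4. Copies of that repeat are near-identical, so the reads cannot be placed in 1 copy with certainty.

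Read by gene, a wider unit than a region, larger shares were common to both lists. Of 17996 protein-coding genes, 2947 (16.4%) had a region in the gene body in sh1 and 2783 (15.5%) in sh4. Both hairpins covered 1769 genes (9.83%), sh1 alone 1178 (6.55%) and sh4 alone 1014 (5.63%). Thus 60.03% of the sh1 genes were also sh4 genes, and 63.6% of the sh4 genes were sh1 genes. In 719 genes (4.0%) the hairpins shared a stretch of the body, and in the other 1050 covered by both they lay in different parts. Over all gene bodies 9.23% of the sh1 length and 9.21% of the sh4 length was shared, somewhat below the values of the whole lists.

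Gene length went with these counts. The median length was 194 kb for genes covered in both, 76.4 kb in sh1 only, 77.4 kb in sh4 only, 243 kb for those with a shared stretch and 17.1 kb for genes covered in neither. Of 708 genes over 300 kb, 538 were covered in both hairpins, where the product of the single shares gives 486, and 287 had a shared stretch. Of 2372 genes of 100 to 300 kb, 852 were covered in both (product 624), and of 7008 genes of 20 to 100 kb 363 (product 125). Of 5194 genes of 5 to 20 kb, 15 were (product 1.99). The count in both hairpins exceeded the product in each of these classes, and by the smallest factor in genes over 300 kb. In that class sh1 alone held 84.6% of the genes and sh4 81.1%, so the count in both could not pass 574. The factor there had little room, and its size is not comparable with those of the shorter classes.

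The genes of at least 5 kb with the highest coverage in the less covered hairpin included 2 neighbouring metalloproteinase genes on chromosome 11. MMP3, which encodes stromelysin (chromosome 11, 102835801 to 102843609), had 35.9% of its body under regions in both hairpins, by overlapping regions with a fold of 1.73 (1.33 to 2.28) in sh1 and 1.74 (1.34 to 2.26) in sh4. MMP1, an interstitial collagenase (102789919 to 102798160), was covered over 22.8% in sh1 and 60.2% in sh4 with no base in common, by regions 1400 bp apart. Both hairpins thus marked the same gene there, but only at MMP3 the same bases.

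The same division ran through the other 10 genes of this rule. A large shared part was found in SLC35G1, a transporter-like membrane protein (32.8% in sh1, 40.4% in sh4, 21.4% shared), in DUX4 (31.3% in each and shared) and in TPD52L1, a vesicle-associated coiled-coil protein (29.1%, 30.6% and 14.3%). BBS12, a chaperonin-like cilium gene, had 22.8%, 30.02% and 9.35%, TSPAN5, a tetraspanin, 23.9%, 24.1% and 8.92%, and OLFM4, a secreted olfactomedin glycoprotein, 26.1%, 43.9% and 10.3%. VEPH1, which encodes a PH domain protein of the ventricular zone (chromosome 3, 157259742 to 157503605), carried 12 sh1 regions and 10 sh4 regions spread over the gene, 28.9% and 29.4% of its length, of which 8.12% was shared. The predicted gene LOC107985043 had 30.1%, 27.5% and 3.84%. HDC, which makes histamine, was covered over 32.8% and 28.0%, and LRRC17, a secreted leucine-rich repeat protein, over 24.3% and 28.6%, each with 0 bases shared. Their nearest regions of the other hairpin were 7000 and 2000 bp apart.

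**Figure D5:**
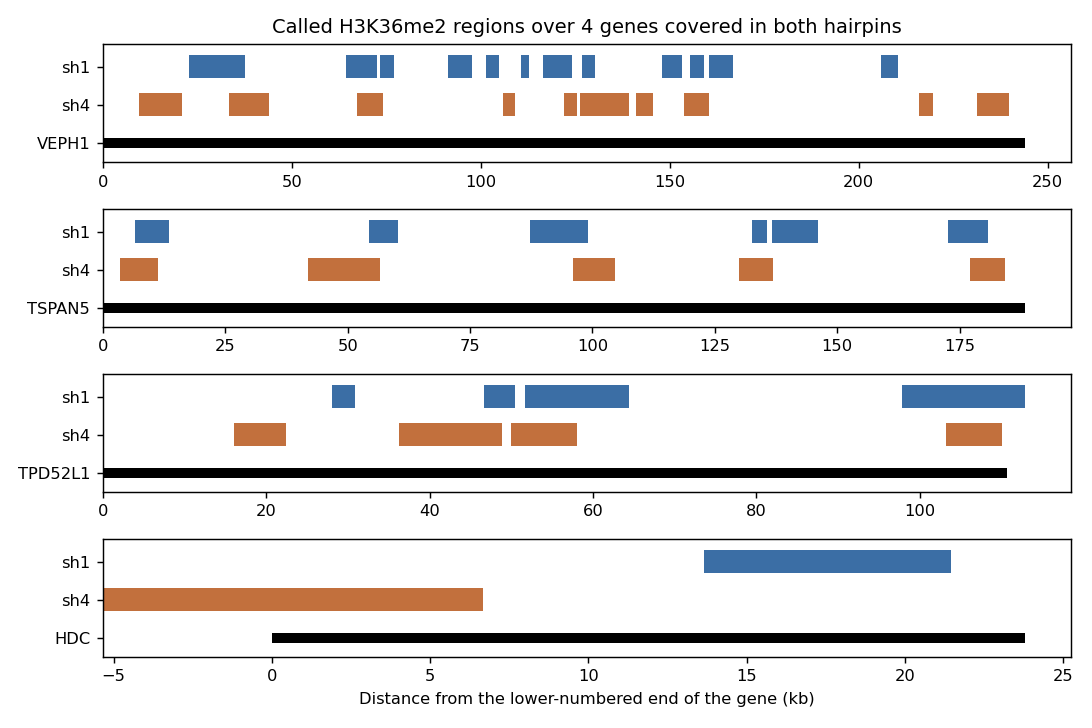
Called H3K36me2 regions of sh1 (blue) and sh4 (orange) along 4 genes covered in both hairpins; the black bar is the gene and the x axis the distance from its lower-numbered end in kb. VEPH1, TSPAN5 and TPD52L1 carry several regions that partly coincide, while HDC has 1 region per hairpin and no shared base.

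The genes above were ranked by the smaller of 2 coverages, so their shares are not comparable with those that follow. Genes covered in 1 hairpin and at 0% in the other were ranked by their single coverage, a rule that favours higher values. In sh1 these were led by the small membrane protein gene SMIM43 (89.2%), the serine protease gene TMPRSS5 (68.2%), TM4SF4 (67.3%), the endoplasmic reticulum protein gene AGR2 (65.2%), the ubiquitin ligase gene TRIM68 (64.1%) and the phospholipase gene PLA1A (62.4%). In sh4 they were the retroviral envelope gene ERVFRD-1, which encodes syncytin-2 (100%), the interferon-induced GTPase gene GBP1 (70.5%), TNFSF10, which encodes the death ligand TRAIL (69.2%), ANKRD66 (66.1%), the dentin matrix gene DMP1 (63.9%) and the Toll-like receptor gene TLR10 (62.9%). All 12 were genes under 32 kb, and each value comes from 1 to 3 regions. With regions of a fold of at least 2 alone, all 12 were at 0% in both hairpins. KDM2A itself and its paralogue KDM2B were at 0% in both hairpins.

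In MAPK signalling, the pathway in the title of the series, most genes covered in 1 hairpin were covered in the other, as over all genes. Of 72 genes, 23 had a region in sh1 and 24 in sh4, 17 of them in both (23.6%, against 9.83% of all genes). The median gene length was 80.6 kb against 25.1 kb over all genes. The 17 were 73.9% of the list's sh1 genes and 70.8% of its sh4 genes, against 60.03% and 63.6% over all genes. These shares were 68.9% and 71.2% for all genes of 100 to 300 kb, and 37.1% and 40.6% for those of 20 to 100 kb. In 6 genes of the MAPK list a stretch was shared. Mean coverage was 1.48% in sh1 and 2.21% in sh4, against 1.41% and 1.38% over all genes. RPS6KA5, the MSK1 kinase that phosphorylates histone H3, was covered over 7.90% in sh1 and 8.65% in sh4 (2.07% shared), MAP3K4, a stress kinase, over 3.34% and 8.92% (3.34% shared), and the neuronal JNK gene MAPK10 over 9.90% and 10.9% (0.514% shared).

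Some MAPK genes had a region in 1 hairpin only. MAPK8, which encodes JNK1, was at 0% in sh1 and 9.50% in sh4, and RASA1, a RAS-inactivating protein, at 0% and 7.09%. MAP3K1 (4.96%), MAP3K7 (6.53%), SOS1 (6.42%), SOS2 (3.31%) and NF1 (2.12%) were likewise covered in sh4 alone. In the opposite direction MAP2K1, which encodes MEK1, was at 6.31% in sh1 and 0% in sh4, and BRAF at 4.16% and 0%. The upstream p38 kinase gene MAP2K6 was covered over 14.4% and 11.2%, with 0% shared. In all, 6 genes of the list were covered in sh1 alone (8.33%) and 7 in sh4 alone (9.72%), against 6.55% and 5.63% of all genes.

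Of 24 neural progenitor markers, 5 were covered in sh1 (20.8%), 4 in sh4 (16.7%) and 3 in both (12.5%), against the 16.4%, 15.5% and 9.83% of all genes, and DACH1, a transcriptional repressor (2.56%, 2.80%, 0.932% shared), had the only shared stretch. The glutamate transporter gene SLC1A3 (13.7%) and the stem cell marker PROM1 (4.66%) were at 0% in sh4. Of 38 genes of neurogenesis and neuron differentiation, 9 were covered in sh1 (23.7%), 7 in sh4 (18.4%) and 6 in both (15.8%), 3 with a shared stretch, all transcription factor genes. These were SOX5 (6.52%, 8.81%, 2.23% shared), EBF1 (15.7%, 11.3%, 1.04%) and TCF4 (5.66%, 4.45%, 0.483%). BCL11A, a zinc finger repressor of cortical development, was at 0% and 10.3%, and LHX8, a factor of cholinergic neurons, at 5.63% and 0%.

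Axon guidance and synapse genes, with a median length of 395 kb, were covered in 31 of 44 in sh1, 30 in sh4 and 28 in both, 13 with a shared stretch. The netrin receptor genes UNC5C (17.8%, 13.4%, 3.36% shared) and UNC5D (4.85%, 7.45%, 1.75%) and the postsynaptic adhesion gene NLGN1 (5.81%, 7.77%, 1.247%) held the most shared kb (13.0, 9.80 and 11.2 kb). The ephrin gene EFNB2 was at 22.2% in sh1 and 0% in sh4, and the NMDA receptor gene GRIN2B at 13.8% and 6.98% (1.89% shared). Long cell adhesion genes (median 946 kb) were covered in 28 of 40 in both, 14 with a shared stretch. TENM2 held 203 kb of sh1 regions, 143 kb of sh4 regions and 28.2 kb of both, LSAMP 13.2% and 11.3% (1.804% shared), and DLG2, a synaptic scaffold, 4.84% and 10.5%. OPCML was at 7.96% in sh1 and 0.447% in sh4, and CDH7, a cadherin, at 0% and 7.995%. Coverage in both hairpins was thus found in 63.6% and 70.0% of these 2 lists, against 76.0% of all genes over 300 kb.

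Growth factor genes were covered in 20 of 38 in sh1, 17 in sh4 and 14 in both (36.8%, against 9.83% of all genes), 7 with a shared stretch, with a median gene length of 95.03 kb against 25.1 kb. EGF was covered over 28.4% in sh1 and 3.37% in sh4, while PDGFC was at 2.46% and 18.5% and FGF12 at 4.93% and 11.9%. ERBB4, a neuregulin receptor, had 3.87% and 6.17% (0.946% shared). Of 49 Wnt, Notch and Hedgehog genes 13 were covered in sh1, 11 in sh4 and 8 in both (16.3%; median length 51.6 kb). RSPO3, a Wnt enhancer, was at 5.44% and 39.1%, LEF1, a Wnt transcription factor, at 22.4% and 7.74%, and the Notch coactivator MAML3 at 16.3% and 12.0%.

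Of 24 enzymes and readers of H3K36 methylation, 6 were covered in sh1, 4 in sh4 (16.7%) and 3 in both (12.5%), against 16.4%, 15.5% and 9.83% of all genes. The reader ZMYND11 was covered alike (3.69%, 3.85%, 2.89% shared), whereas MORF4L1, a reader of the same mark, was at 9.50% in sh1 alone and the Polycomb-like reader MTF2 at 9.37% in sh4 alone. Of 28 Polycomb genes 7 were covered in each hairpin, 6 of them in both (21.4%; median length 43.8 kb). AUTS2 had 5.94% and 5.71% (0.485% shared) and JARID2 2.32% and 1.67% (1.015% shared), while PCGF5 (1.09%, 9.52%) and RYBP (4.72%, 20.3%) were more covered in sh4.

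Lists of short genes or of other cell types varied, against 16.4% of all genes covered in sh1, 15.5% in sh4 and 9.83% in both. Short genes are seldom covered: in sh1 and sh4, 0.847% and 0.884% under 5 kb, 2.14% and 1.79% at 5 to 20 kb, and 14.0% and 12.8% at 20 to 100 kb. Median lengths were 3.785 kb for HOX, 1.715 kb for olfactory receptor and 5.035 kb for ribosomal protein genes. The other lists here lay between 10.2 kb (mesoderm and endoderm) and 23.2 kb (neural crest). The 39 HOX genes had 0 regions in either hairpin. Of 330 olfactory receptor genes 9 were covered in sh1 (2.73%) and 10 in sh4 (3.03%), with 0 in common, among them OR5P2 (100% in sh1) and OR5M9 (100% in sh4). Of 79 ribosomal protein genes 1 was covered, RPS29 (13.0% in sh1). Pluripotency genes had 1 of 21 in sh1, ZFP42 (40.4%), and 0 in sh4, mesoderm and endoderm genes 0 and 1 of 28, KDR (13.2%), and genes of blood, liver and muscle 1 and 1 of 26, among them TTR (50.7% in sh1). Neural crest genes were covered in 2 of 16 in sh1 (12.5%) and 5 in sh4 (31.2%), 2 in both, with ZEB2 at 9.26% and 2.94% and ETS1 at 7.76% in sh4 alone. Glial genes were covered in 2 of 21 (9.52%) and 3 (14.3%), 2 in both, with SPARCL1 at 18.9% and 23.9% but 0 bases shared and the water channel gene AQP4 at 29.1% in sh4 alone. Cell cycle genes were covered in 3 and 1 of 38. CDK6, a G1 kinase, was covered over 14.8% and 13.2% (2.68% shared), and the E2F3 (7.40%) and BUB1 (3.95%) genes in sh1 alone.

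Shared sequence lay in gene bodies less often than sequence called in 1 hairpin. Gene bodies made up 35.5% of the shared length, 42.2% of the length in sh1 alone, 39.5% of that in sh4 alone and 43.5% of the 1 Mb windows with a region. Sequence within 2 kb of gene starts made up 0.471%, 0.718%, 0.606% and 2.07%. KDM2A peaks of the control cells lay in shared sequence at 193 per Mb (185 to 202), in sh1-only sequence at 192 per Mb (189 to 195) and in sh4-only sequence at 166 per Mb (164 to 169), against 165 per Mb over the windows. Counting the 30, 378 and 327 peaks with an FDR under 0.05, the densities were 3.13 per Mb (2.11 to 4.47), 4.81 (4.34 to 5.32) and 3.89 (3.48 to 4.33), against 4.69. For all peaks, shared sequence was thus as dense as sequence of sh1 alone within counting error and denser than sequence of sh4 alone. For the peaks under the FDR limit shared sequence had the lowest density, from 30 peaks, and its interval overlapped both others. Overlap of separate intervals does not show that the densities are equal, and no interval of their ratio was computed.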

How the data were processed

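ChIP-seq region lists of H3K36me2 from neural progenitor cells carrying hairpin sh1 or hairpin sh4 were used, 1 library each. Per the submitters' processing notes the tools were Bowtie 1.1.2, SICER and MACS2 and the genome build was GRCh38 (hg38). The notes do not tie a tool to a step. Per the file headers, each region carries a fold enrichment, a linear ratio set by the authors, and the authors' p-value and FDR. The regions lie on a 200 bp grid and their smallest gap is 800 bp, so calls nearer than that appear as 1 region. The deposited score was not used, nor was the deposited pileup signal of the KDM2A list. IP and input read counts were recovered from the deposited fold and p-value under a Poisson model. In both lists 100% of IP values met the deposited p within 0.001 (natural logarithm) and 100% of input values were whole within 0.01. The 3 sh1 and 6 sh4 regions with a deposited p of 0 have no recovered counts. Total library depths were not given in the sources used here.

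Overlaps, coverage, intervals (exact binomial, and the exact conditional interval for ratios of counts) and gene coverage were computed in Python 3.11.15 with pandas 2.3.3, numpy 2.4.6 and scipy 1.17.1, and checked on simulated data. Overlap means at least 1 bp. Genes came from RefSeq GRCh38.p14 (17996 of 19122 protein-coding genes on chromosomes 1 to 22, after leaving out 973 on chromosome 1 beyond 140 Mb and 153 with coordinates of other sequences). The 18 gene lists are cut to genes in this set. The rule for named genes took KDM2A and KDM2B, the 12 genes of at least 5 kb with the highest smaller coverage, the 6 highest in each hairpin at 0% in the other, and up to 5 per list. It also took the 8 widest shared stretches, the 5 widest regions of each hairpin alone and 4 promoters. The comparison, its gene lists and this rule were chosen with earlier results of these data known. Values of some genes the rule names are left out of the text. Coordinates are counted from 1.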

Additional observations from a re-analysis of the deposited data

Results flagged for a closer look

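Sequence outside the comparison also held regions in both hairpins. On chromosome 1 from 140 Mb on there were 655 sh1 regions and 1840 sh4 regions, a ratio of 2.81 (2.57 to 3.08), against 1.05 in the sequence compared. They covered 3.13 Mb in sh1 and 15.5 Mb in sh4, and the shared 0.917 Mb was 29.3% of the sh1 length and 5.93% of the sh4 length. On chromosome X there were 635 and 584 regions (0.920, 0.821 to 1.03) covering 2.93 Mb in each hairpin, of which 6.23% of sh1 and 6.24% of sh4 was shared.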

How the results depend on the processing

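No paired analysis was possible because each hairpin has 1 library. The share of sh1 and sh4 length in common (10.9% and 10.2%) was 1.37% and 1.04% with regions of a fold of at least 2, 4.78% and 4.11% with regions at or above each list's median fold, 11.3% and 9.53% with chromosome X and the rest of chromosome 1, and 13.6% and 12.8% with regions widened by 1 kb. The shared length over the product stayed between 1.52 and 1.801 in these settings. Regions met were 1.96% (sh1) and 1.72% (sh4) at a fold of at least 2, 11.1% and 9.70% when 50% of the region had to be covered, and 15.7% of sh4 with the added sequence. The length ratio was 1.32 at a fold of at least 2, 1.21 from the pooled median fold and 1.19 with the added sequence. Genes in both, sh1 only and sh4 only numbered 167, 606 and 581 at 10% coverage or more, and 277, 445 and 541 at a fold of at least 2. Each restriction leaves fewer regions. Leaving out regions with a p of 0, an alternative chosen after seeing the data, gave 10.9% and 10.2%.

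At a fold of at least 2, 50 of the 76 named genes covered in either hairpin had no region left, among them the 12 highest in 1 hairpin at 0% in the other and MAPK8, RASA1, EFNB2 and BCL11A. In 44 of 78 the difference in coverage moved by 5 points or more without a change of sign. Another 9 changed sign, and of these OLFM4 and ZEB2 also moved by more than 5 points. The sh4 minus sh1 coverage in percentage points changed sign with 2 kb added to the gene for TPD52L1 (-0.355) and HDC (3.07). At a fold of at least 2 it changed sign for VEPH1 (-0.902), OLFM4 (-10.3), DACH1 (-0.932), TCF4 (0.242), NLGN1 (-0.512), UNC5D (-0.285), MAPK10 (-1.71), AUTS2 (0.268) and ZEB2 (2.94). The cause was not tested. Depth limits single folds, since the typical interval spans 1.26 to 2.18.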
